A study of Rattus norvegicus with 10 samples.

Results

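The PDE4 family consists of 4 genes, Pde4a, Pde4b, Pde4c and Pde4d, which were selected by symbol from the deposited table of 17168 genes, and all 4 were found there. RNA from the left hippocampus was sequenced in 10 female rats, 1 library per animal. All 10 animals were TgF-344AD rats (genotype Tg-AD), which carry mutant human APP and presenilin 1 transgenes driven by the mouse prion promoter, and all were 11 months old at dissection. The untreated group (n = 5) received rodent chow with no treatment. The ibudilast group (n = 5) received ibudilast in the chow from 5 months of age for 6 months, at a dose not given in the sources used here. Animals without the transgenes were not analysed here, so every value refers to transgenic tissue. By the summed markers of cerebellum, meninges, choroid plexus and pituitary, 4 libraries stood apart. Cerebellar markers summed to 4345 CPM in ibudilast 3, where the other 9 libraries had 47.9 to 151. Meningeal markers summed to 1081 CPM in ibudilast 3 and 1238 CPM in ibudilast 5, and choroid plexus markers to 2620 CPM in untreated 1. Pituitary markers summed to 59.0 CPM in ibudilast 1 and 32.0 CPM in ibudilast 3, where the other 8 libraries had 1.29 to 7.45. CPM are read counts put on 1 scale across libraries by their totals and TMM factors, and the main results are given with all libraries, without the first 3 of these, and without all 4. Neocortical neuron markers summed higher in every ibudilast library than in every untreated one, also with these 4 libraries left out.

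PDE4 enzymes hydrolyse the second messenger cAMP and thereby end signalling through protein kinase A (PKA), the exchange factor Epac and the transcription factor CREB. Long forms carry upstream conserved regions through which PKA activates the enzyme, and anchoring proteins hold the enzymes at particular sites in the cell. In the hippocampus, cAMP signalling is known for its part in synaptic plasticity and memory. Ibudilast is an inhibitor of several cyclic nucleotide phosphodiesterases, PDE4 among them. Transcription of some PDE4 forms is itself known to rise with cAMP, through the cAMP response element to which CREB binds. The comparison asks whether long treatment goes with a different level of the transcripts of the drug's own target family.

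Each PDE4 gene has several start sites, and the counts are summed over all transcripts of a gene, so start sites and isoforms were not resolved. RefSeq promoter windows (build GRCr8; 250 bases before to 50 after an annotated start) were matched by symbol for 3 of the 4 genes, with 4 windows for Pde4a, 2 for Pde4b and 5 for Pde4d, all on the plus strand. The windows were searched on both strands for the palindromic cAMP response element TGACGTCA and for its core, TGACG or CGTCA, which every full element also contains. None of the 11 windows held the full element, which occurred in 1.83% of all 33465 RefSeq windows of this length and in 3.26% of the 9210 windows of tested genes. The core occurred in 4 of the 11 windows (36.4%), against 21.2% of all windows and 31.5% of the windows of tested genes. Such matches are letters in a window and do not show binding. The 4 windows with a core match are printed because they show where the matched letters lie relative to each start, with the matched bases in capitals. They are Pde4a window 1 (chr8:27966737-27967036), Pde4a window 3 (chr8:27999163-27999462), Pde4d window 3 (chr2:42592499-42592798) and Pde4d window 4 (chr2:42767367-42767666).
Pde4a window 1: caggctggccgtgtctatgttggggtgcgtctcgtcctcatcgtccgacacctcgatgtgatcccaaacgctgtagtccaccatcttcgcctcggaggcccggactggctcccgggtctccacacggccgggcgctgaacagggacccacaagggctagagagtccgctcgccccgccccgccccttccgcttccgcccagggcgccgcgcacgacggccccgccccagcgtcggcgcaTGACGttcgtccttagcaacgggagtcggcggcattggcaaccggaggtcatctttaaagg
Pde4a window 3: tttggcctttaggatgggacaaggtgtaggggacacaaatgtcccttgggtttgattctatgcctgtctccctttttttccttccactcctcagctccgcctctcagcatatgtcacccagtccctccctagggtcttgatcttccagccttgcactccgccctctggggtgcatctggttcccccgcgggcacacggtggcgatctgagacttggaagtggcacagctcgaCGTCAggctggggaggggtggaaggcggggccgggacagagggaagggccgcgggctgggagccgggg
Pde4d window 3: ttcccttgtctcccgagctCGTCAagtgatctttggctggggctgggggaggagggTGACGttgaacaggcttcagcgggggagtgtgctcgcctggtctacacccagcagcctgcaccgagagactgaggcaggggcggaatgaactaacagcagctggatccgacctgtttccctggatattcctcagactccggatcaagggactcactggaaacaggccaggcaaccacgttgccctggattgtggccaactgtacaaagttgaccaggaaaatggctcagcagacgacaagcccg
Pde4d window 4: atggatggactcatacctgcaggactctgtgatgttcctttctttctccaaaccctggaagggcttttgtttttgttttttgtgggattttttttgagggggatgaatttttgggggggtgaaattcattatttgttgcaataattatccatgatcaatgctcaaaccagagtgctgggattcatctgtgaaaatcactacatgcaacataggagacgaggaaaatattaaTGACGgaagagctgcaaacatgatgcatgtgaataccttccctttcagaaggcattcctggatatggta
In windows 1 and 3 of Pde4a the first matched base lay 11 and 18 bases before the start. In Pde4d window 4 it lay 19 bases before the start. Pde4d window 3 held matches 231 and 194 bases before the start. Neither window of Pde4b held a match.

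Pde4d, Pde4b and Pde4a rose with ibudilast, and Pde4c did not pass the test. The rises were 3.09-fold for Pde4d, 2.10-fold for Pde4b and 1.76-fold for Pde4a. For each of these 3 genes the lowest ibudilast library lay above the highest untreated library. Across all 11682 genes tested, 38.5% were called changed by edgeR at a Benjamini-Hochberg adjusted p under 0.05. Called higher were 20.0% of genes, and 12.5% had every ibudilast library above every untreated one, so a rise as such was common in this comparison. CPM are not divided by transcript length, so levels are compared between groups and not between genes.

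PDE4D encodes the form best known for its place in memory and in complexes with beta-arrestin. In the untreated libraries Pde4d stood at 8.54, 7.34, 10.9, 12.3 and 17.1 CPM in replicates 1 to 5. In the ibudilast libraries it stood at 28.0, 36.9, 28.4, 38.7 and 41.7 CPM. The groups did not overlap, and the lowest ibudilast value was 1.64 times the highest untreated value, that of untreated 5. The means were 11.3 ± 3.81 and 34.8 ± 6.22 CPM (SD, n = 5 each), and the log2 fold change was 1.63 (SE 0.22, edgeR adjusted p = 0.00098, 95% interval 1.14 to 2.11). A log2 fold change at least as high was seen in 265 tested genes, or 2.27%.

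PDE4B encodes the form linked to inflammatory responses of myeloid cells and, through the scaffold DISC1, to psychiatric disease. Its transcript stood at 24.5, 18.7, 28.0, 25.4 and 35.9 CPM in untreated replicates 1 to 5. The ibudilast libraries had 40.5, 63.8, 48.0, 71.1 and 54.5 CPM. Untreated 5 was again the highest of its group and ibudilast 1 the lowest of the treated group, at 1.13 times untreated 5. The means were 26.5 ± 6.24 and 55.6 ± 12.2 CPM (SD, n = 5 each), and the log2 fold change was 1.07 (SE 0.19, edgeR adjusted p = 0.00217, 95% interval 0.66 to 1.48). Of all tested genes 6.15% had a log2 fold change at least as high.

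PDE4A is widely expressed in brain. Pde4a stood at 33.9, 38.9, 42.8, 43.2 and 51.7 CPM in untreated replicates 1 to 5, and at 64.8, 92.0, 55.1, 86.1 and 73.1 CPM in ibudilast replicates 1 to 5. The gap between the groups was narrow, since ibudilast 3 exceeded untreated 5 by a factor of 1.06. The means were 42.1 ± 6.56 and 74.2 ± 15.1 CPM (SD, n = 5 each), and the log2 fold change was 0.82 (SE 0.15, edgeR adjusted p = 0.00288, 95% interval 0.48 to 1.16). A value at least as high was seen in 10.1% of tested genes.

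PDE4C is known mainly from peripheral tissues. Its transcript was scarce, with 12 to 25 counts per library against 58 to 440 for Pde4d, 153 to 606 for Pde4b and 230 to 771 for Pde4a. Pde4c stood at 2.65, 2.45, 1.64, 2.15 and 2.21 CPM in untreated replicates 1 to 5. In ibudilast replicates 1 to 5 it stood at 1.95, 3.02, 1.46, 1.64 and 2.37 CPM, and the untreated range lay inside that of the ibudilast libraries. The log2 fold change was -0.09 (SE 0.25, edgeR adjusted p = 0.804). Its 95% interval ran from -0.63 to 0.46, or from 0.646-fold to 1.37-fold, and it includes both a rise and a fall. All 10 deposited counts of each PDE4 gene were whole numbers.

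**Figure D1:**
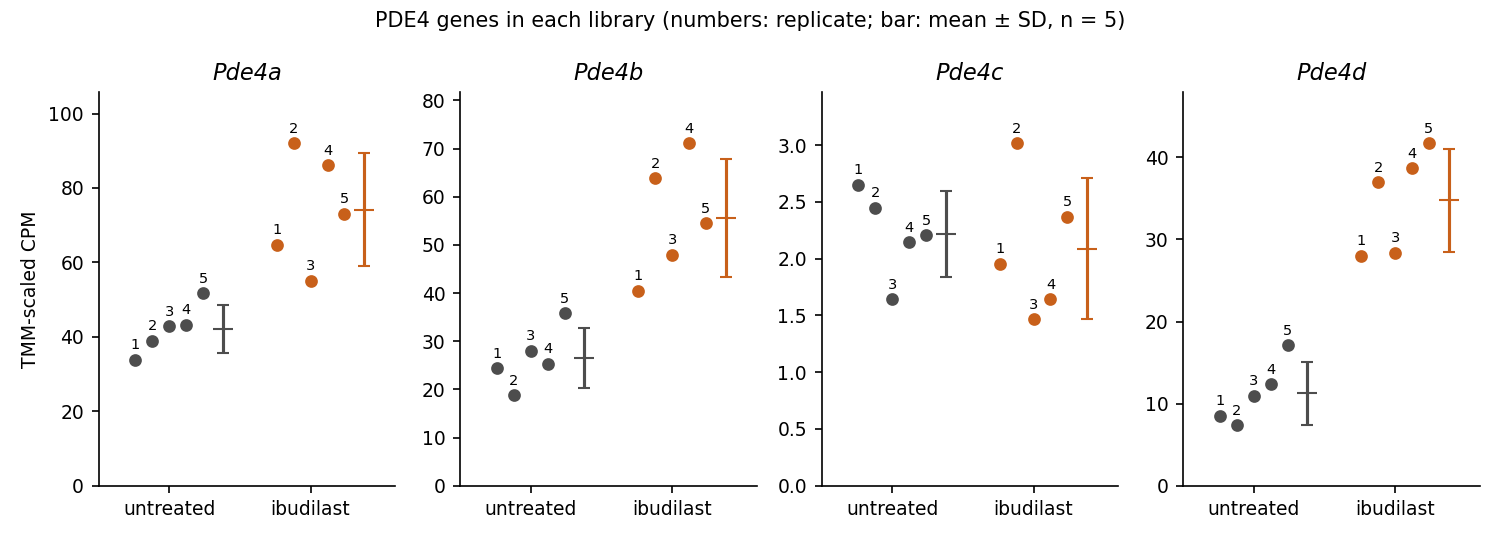
TMM-scaled CPM (y axis) of Pde4a, Pde4b, Pde4c and Pde4d in each untreated (grey) and ibudilast (orange) library, with the replicate number above each point and the mean ± SD (n = 5) beside it. The lowest ibudilast point lies above the highest untreated point for Pde4a, Pde4b and Pde4d, and the points of Pde4c overlap.

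Summed over the 4 genes, PDE4 stood at 69.5, 67.4, 83.4, 83.1 and 106.9 CPM in untreated replicates 1 to 5. In ibudilast replicates 1 to 5 the sum was 135.2, 195.8, 132.9, 197.5 and 171.7 CPM. Untreated 5 was highest of its group for Pde4a, Pde4b and Pde4d, and ibudilast 1 and ibudilast 3 were the lowest treated libraries for each of them. Pde4c followed another order, since untreated 1 and untreated 2 had the most of it and the least Pde4a and Pde4d of the untreated libraries. Ibudilast 2 and ibudilast 4 had the most Pde4a and Pde4b, whereas ibudilast 5 had the most Pde4d.

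The members changed by unequal amounts. To compare them without any scaling between libraries, the log2 ratio of the counts of 2 members was taken within each library (0.5 added to each count), and the groups were compared for all 6 pairs with a two-sided exact permutation test. The smallest p that 252 arrangements allow is 0.00794. The ratio of Pde4d to Pde4a was -2.40 to -1.59 in untreated and -1.31 to -0.81 in ibudilast libraries. That is a shift of 0.86 on the log2 scale, higher in 5 of 5 ibudilast libraries than in any untreated one (exact p = 0.00794, adjusted p = 0.00952 over 6 pairs). The ratio of Pde4d to Pde4b shifted by 0.59, again without overlap (exact p = 0.00794, adjusted p = 0.00952). Pde4b against Pde4a shifted by 0.27, with groups that overlapped, and did not pass (exact p = 0.0873, adjusted p = 0.0873). Against Pde4c, the ratios of Pde4d, Pde4b and Pde4a shifted by 1.78, 1.19 and 0.93, each without overlap (exact p = 0.00794 and adjusted p = 0.00952 for each). Without ibudilast 3, ibudilast 5 and untreated 1 together, the Pde4d to Pde4a shift was 0.71 (exact permutation adjusted p = 0.0686). Without ibudilast 1 as well, ibudilast 2 and ibudilast 4 remained against 4 untreated libraries. In that design the smallest exact p is 0.0667 and no pair could pass. The shifts of Pde4d against Pde4a and Pde4b were then 0.70 and 0.37.

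**Figure D2:**
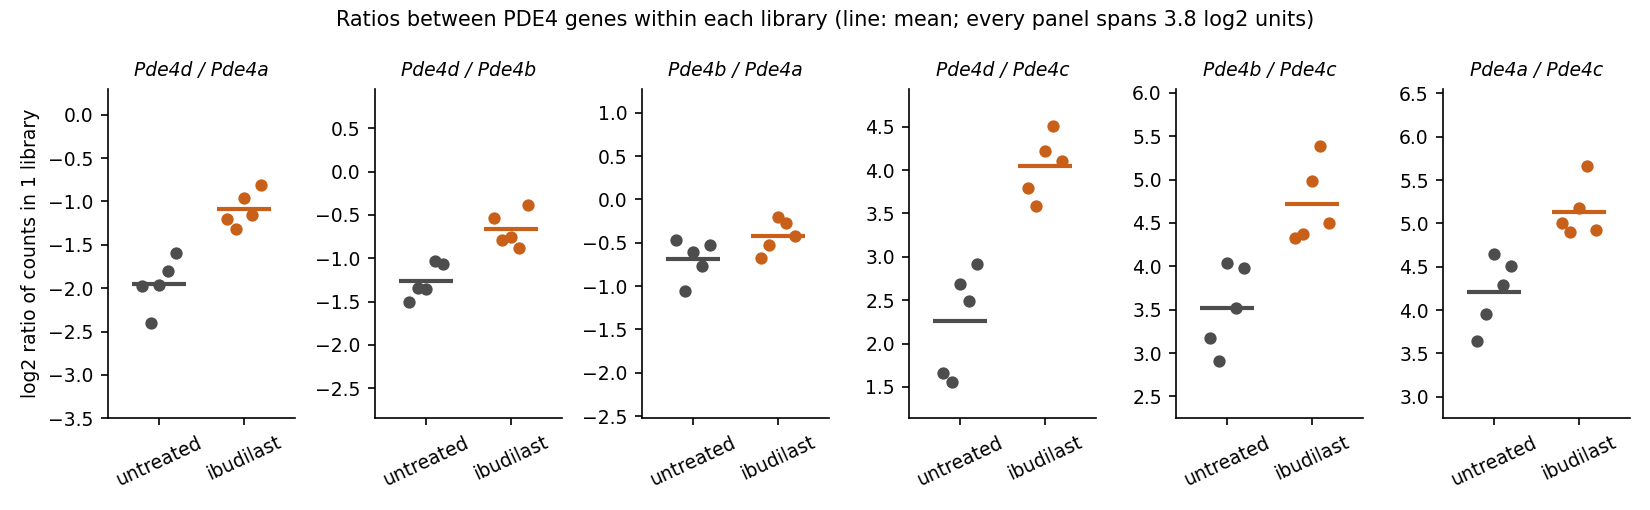
Log2 ratio of the counts of 2 PDE4 genes within each library (y axis), for the 6 pairs, in untreated (grey) and ibudilast (orange) libraries, with a line at each group mean. Groups do not overlap in any panel but that of Pde4b to Pde4a, where the means differ by 0.27.

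The makeup of the PDE4 transcript pool moved accordingly. Of the summed PDE4 counts, Pde4d made up 13.4% ± 2.03 in untreated and 21.0% ± 2.10 in ibudilast libraries (SD, n = 5 each), with ranges of 10.9% to 16.0% and 18.9% to 24.3%. The share of Pde4a was 51.6% ± 3.75 and 44.5% ± 2.81, and that of Pde4c 2.81% ± 0.865 and 1.26% ± 0.290. Pde4b kept a share of 32.1% ± 2.96 and 33.3% ± 2.70, with overlapping ranges. Shares depend on transcript length and are read here only between groups. They follow from the same counts as the ratios and are given as a description.

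Members differ widely in the length of genome they span, and span moved with the fold changes of all genes. On GRCr8 Pde4d spans 1514.2 kb, Pde4b 569.3 kb, Pde4a 62.7 kb and Pde4c 20.8 kb, which is also the order of their log2 fold changes. Over the 11460 tested genes with a span, the median log2 fold change was -0.31 in the decile of shortest genes and 0.38 in that of the longest, which holds Pde4d and Pde4b. Within that decile of 1146 genes, 6.63% had a log2 fold change at least that of Pde4d and 16.9% one at least that of Pde4b. In the decile of Pde4a the median was 0.20 and 14.5% of genes reached its value. In the decile of Pde4c the median was -0.02.

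With a loess trend on span removed from each library, Pde4d, Pde4b and Pde4a still passed, at log2 fold changes of 1.03, 0.58 and 0.62 (edgeR adjusted p = 0.00113, 0.00868 and 0.00928). Removing the trend thus lowered the log2 values of Pde4d and Pde4b more than that of Pde4a. The shift of Pde4d against Pde4a was 0.44 in those terms and no longer passed (exact permutation adjusted p = 0.0571), whereas that against Pde4b was 0.46 (adjusted p = 0.0317). The counts use build rn6, so a span from GRCr8 is an approximation, and the part that span plays in the result was not tested beyond these values.

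**Figure D3:**
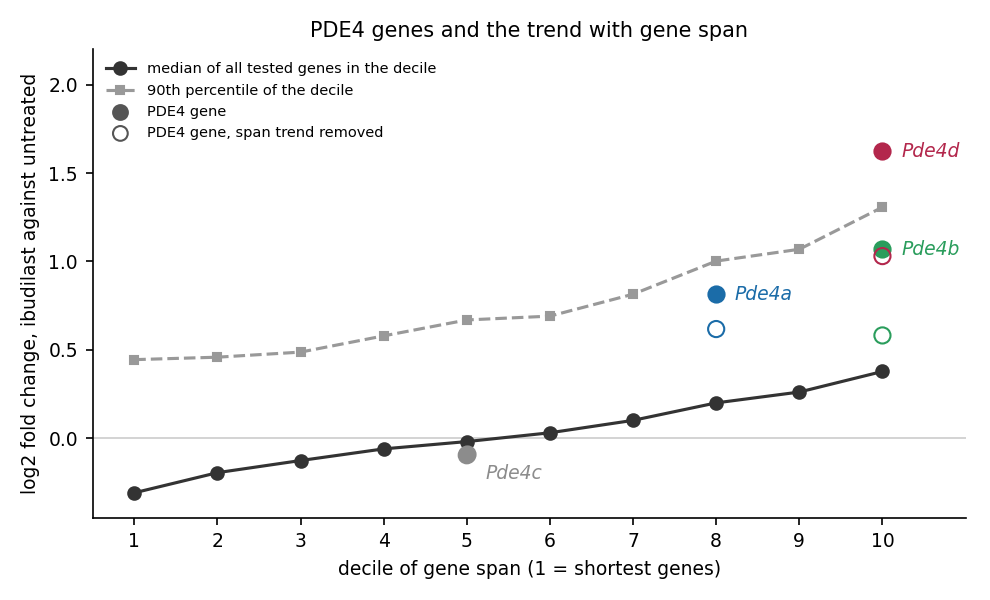
Log2 fold change, ibudilast against untreated (y axis), by decile of gene span (x axis), with the median and 90th percentile of all tested genes in each decile and the 4 PDE4 genes as filled points. Open circles give the PDE4 genes with the span trend removed, where Pde4d falls from 1.63 to 1.03. The medians and percentiles drawn are those before the trend was removed.

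Markers of neighbouring tissue and of several cell types also differed between the groups. The counts below stand beside 20.0% of all tested genes called higher and 18.5% called lower. Of 11 tested neocortical neuron markers 7 were higher and none lower, and their summed level in CPM ran from 274 to 340 without treatment and from 381 to 932 with it. It was highest in ibudilast 4 (932 CPM) and ibudilast 2 (889 CPM), the 2 libraries with the most Pde4a and Pde4b. Of 10 tested hippocampal principal cell markers 6 were lower and none higher, with sums of 575 to 1421 and 344 to 807 CPM, and none of the 13 in the table was at 0 in every library. Of 12 microglia markers 11 were lower, with sums of 832 to 1446 and 380 to 723 CPM. Astrocyte markers (5 of 10 lower) summed to 4744 to 7019 and 3082 to 4475 CPM, and oligodendrocyte precursor markers (4 of 8 lower) to 700.1 to 816 and 469 to 572 CPM. Striatal and thalamic markers (4 of 10 higher) summed to 153 to 228 and 273 to 383 CPM, and the sums of these 3 lists did not overlap between the groups. Other lists moved less clearly. None of 10 oligodendrocyte and none of 4 blood and immune cell markers was called. Of 8 interneuron markers 3 were higher, and of 10 endothelial and mural markers 4 were lower. The sums of each of these lists overlapped between the groups. In tissue, fewer cells of a type and less RNA per cell cannot be told apart, and the cells that the PDE4 transcripts came from were not resolved.

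A score was the mean log2 CPM of the tested markers of a list, each marker centred and scaled over all libraries. The PDE4 values with the neocortical and hippocampal scores in the model were as follows. With the neocortical score as a covariate Pde4d had a log2 fold change of 1.38 and Pde4b one of 0.79, and both passed (edgeR adjusted p = 0.00998 and 0.0359). Pde4a was at 0.46 and did not pass (adjusted p = 0.0708). With the hippocampal score as a covariate, where 2 of all 11682 genes passed and 2837 had an unadjusted p under 0.05, the log2 fold changes of Pde4d, Pde4b and Pde4a were 1.65, 0.75 and 0.65 (adjusted p = 0.0705, 0.16 and 0.15). The neocortical sums did not overlap between the groups (274 to 340 CPM untreated, 381 to 932 CPM with ibudilast). Treatment and neocortical tissue therefore cannot be told apart by the fit with that score, which was built from the tested markers of the same list. The hippocampal sums overlapped (575 to 1421 CPM untreated, 344 to 807 CPM with ibudilast). How far treatment and the hippocampal score can be told apart was not tested. The part of neighbouring tissue in the PDE4 result was not tested. Without ibudilast 3, ibudilast 5 and untreated 1 Pde4d, Pde4b and Pde4a had log2 fold changes of 1.53, 1.11 and 0.87, and each passed (edgeR adjusted p = 0.00601, 0.0129 and 0.00666). Without ibudilast 1 as well they had 1.67, 1.33 and 1.02 (edgeR adjusted p = 0.00274, 0.00311 and 0.00135). That fit left ibudilast 2 and ibudilast 4 as the treated libraries. These had the highest neocortical sums (889 and 932 CPM) and the lowest hippocampal sums (418 and 344 CPM) of all libraries.

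**Figure D4:**
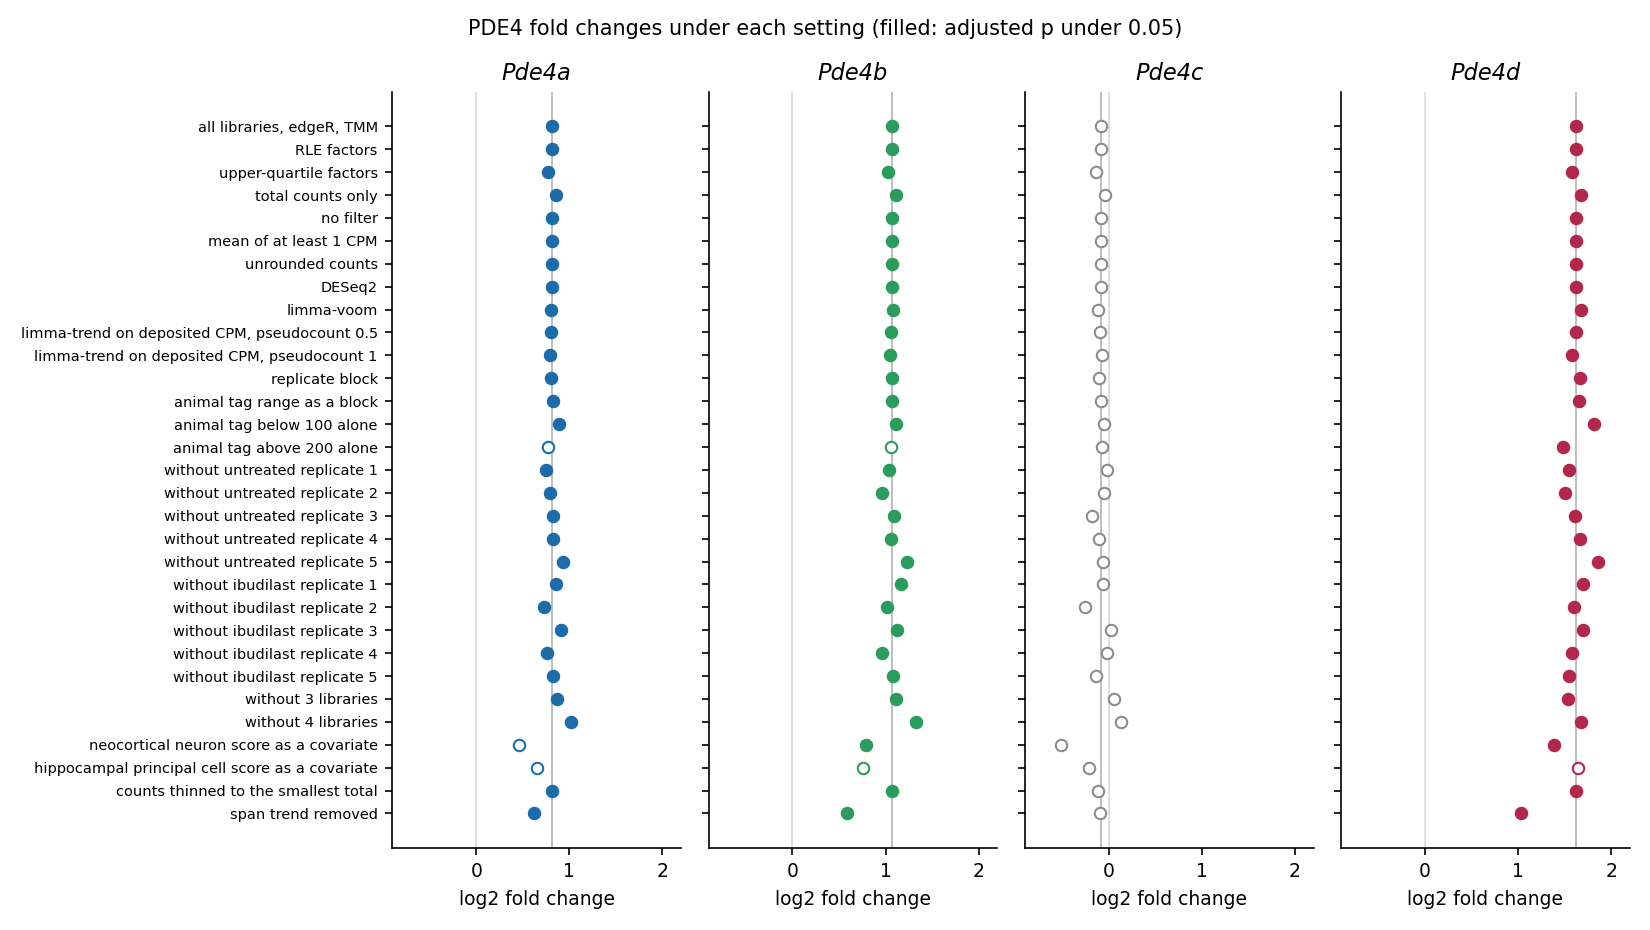
Log2 fold change of each PDE4 gene (x axis) under each scaling, filter, test, covariate and set of libraries (y axis), with filled points where the adjusted p is under 0.05 and a grey line at the value with all libraries. Pde4d, Pde4b and Pde4a lie above 0 in every row, and Pde4c lies between -0.51 and 0.14.

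The other genes of the cAMP pathway were described from 7 lists that together held 85 tested genes. Of these, 31 rose (36.5%) and 7 fell (8.24%), against 20.0% and 18.5% of all tested genes, and their median log2 fold change was 0.43 against 0.01 over all genes. A log2 fold change at least that of Pde4d was seen in 4 of the 85, at least that of Pde4b in 12 and at least that of Pde4a in 25.

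Among the 9 adenylyl cyclases, the enzymes that make cAMP, Adcy1, Adcy9, Adcy8, Adcy6 and Adcy5 rose (55.6%) and none fell (median log2 fold change 0.73). All tested genes had 20.0% called higher and 18.5% lower. Adcy1, which is stimulated by calcium and calmodulin, stood at 65.5 ± 28.9 CPM untreated and 292 ± 61.0 CPM with ibudilast (SD, n = 5 each), a rise by 2.15 on the log2 scale (SE 0.29, edgeR adjusted p = 0.00098). Adcy9 went from 10.5 ± 3.23 to 33.5 ± 9.04 CPM. Neither gene's groups overlapped.

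Of the 12 other phosphodiesterases that act on cAMP, 3 rose (Pde10a, Pde8b and Pde7a) and none fell (median 0.53). For comparison, 20.0% of all tested genes were called higher and 18.5% lower. Whether the shares in this list differ from those was not tested. Pde10a, which encodes an enzyme of cAMP and cGMP breakdown that is abundant in striatum, went from 20.0 ± 5.69 to 41.0 ± 5.04 CPM (SD, n = 5 each; log2 fold change 1.03, edgeR adjusted p = 0.00186). Pde8b had a log2 fold change of 0.68 (adjusted p = 0.0464), a call that held without untreated 5 or without ibudilast 3 but in none of the other 8 fits with 1 library removed. Pde7a, at 0.64, did not pass without untreated 1, untreated 3, untreated 4, ibudilast 2, ibudilast 3 or ibudilast 4.

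Among 9 PKA and Epac genes, Prkacb, Prkar2a and Prkar2b rose (33.3%, against 20.0% of all tested genes) and none fell (median 0.24). Prkacb encodes a catalytic subunit of PKA and rose from 66.0 ± 24.8 to 170 ± 51.3 CPM. Prkar2a encodes a regulatory subunit and rose from 15.9 ± 3.77 to 35.2 ± 5.04 CPM (SD, n = 5 each). The subunit gene Prkar1a stood at 293 ± 40.1 and 318 ± 42.6 CPM and did not pass (edgeR adjusted p = 0.463).

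In the CREB list 3 of 6 genes rose (Creb1, Crtc1 and Crebbp), and none fell (median 0.32). Among all tested genes 20.0% were called higher and 18.5% lower. Whether a list of 6 genes differs from those shares was not tested. Creb1, which encodes CREB, went from 3.96 ± 1.54 to 7.87 ± 1.33 CPM, and Crtc1, which encodes a CREB coactivator, from 73.0 ± 12.4 to 129 ± 11.0 CPM (SD, n = 5 each). Crebbp, which encodes the CREB-binding protein, had a log2 fold change of 0.41 and did not pass without untreated 1, untreated 3, untreated 4, ibudilast 2 or ibudilast 5. Crem, whose short products repress cAMP-driven transcription, stood at 14.0 ± 0.666 and 12.6 ± 0.703 CPM (edgeR adjusted p = 0.212). Creb1 had a log2 fold change of 0.89 without ibudilast 3, ibudilast 5 and untreated 1 and did not pass there (adjusted p = 0.0816).

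Of 18 genes for anchors and partners of PDE4, 8 rose (44.4%) and 3 fell (median 0.35). Of all tested genes, 20.0% were called higher and 18.5% lower. Pde4dip, which encodes the PDE4D-interacting protein myomegalin, ranged from 129 to 183 CPM without treatment and from 279 to 321 CPM with it, a log2 fold change of 0.94 with no overlap (SE 0.11, edgeR adjusted p = 0.000664). The beta-arrestins, which bring PDE4D to activated receptors, moved apart. Arrb1 rose from 24.7 ± 3.44 to 57.4 ± 9.11 CPM, and Arrb2 fell from 83.6 ± 4.37 to 62.9 ± 7.83 CPM (SD, n = 5 each; edgeR adjusted p = 0.000664 and 0.00604). Of the anchoring proteins for PKA and PDE4, Akap12, Akap6, Akap9 and Akap1 rose, with log2 fold changes of 1.25, 0.99, 0.61 and 0.46. Akap12 was highest in ibudilast 3, at 277 CPM, where the other treated libraries had 68.4 to 118 CPM, and its log2 fold change was 0.81 without that library. Pafah1b1 (0.62) and Mapkapk2 (0.27) also rose, and Gnb2l1 (-0.34) and Mapk3 (-0.52) fell.

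Gnb2l1 encodes RACK1, a scaffold that binds PDE4D, and Mapk3 encodes an ERK kinase, a class of enzyme that phosphorylates long PDE4 forms. The call of Mapk3 held without untreated 4 or without ibudilast 1 but in none of the other 8 such fits. Gnb2l1 did not pass without untreated 1, untreated 2, untreated 3, ibudilast 2, ibudilast 4 or ibudilast 5. Mapkapk2 did not pass without untreated 1, untreated 3, untreated 4, ibudilast 1, ibudilast 2, ibudilast 3 or ibudilast 5.

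Among 14 receptors and G proteins that raise cAMP, Crhr1, Drd1, Vipr1 and Vipr2 rose, and Gnas and Adora2b fell (median 0.14). That is 28.6% higher, against 20.0% of all tested genes. Crhr1, the receptor gene for corticotropin-releasing hormone, went from 2.97 ± 1.70 to 16.0 ± 8.02 CPM, and Gnas, which encodes the stimulatory G protein, from 1793 ± 360 to 957 ± 162 CPM (SD, n = 5 each). The dopamine receptor gene Drd1 had a log2 fold change of 0.92 and the adenosine receptor gene Adora2b one of -0.57. Adora2b did not pass without untreated 3 or untreated 5. With single libraries removed, the call of Vipr1 (0.89) held without ibudilast 1 or ibudilast 3 alone, and that of Vipr2 (0.47) without untreated 2, ibudilast 2 or ibudilast 3 alone.

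In the list of genes known to be induced through CREB, 5 of 17 rose and 2 fell (median 0.58), so its members did not move one way. The share that rose was 29.4%, against 20.0% of all tested genes. The early response genes Fos and Egr1 had log2 fold changes of 1.95 and 1.59 (SE 0.53 and 0.40, edgeR adjusted p = 0.0142 and 0.01), and their groups overlapped. Fos did not pass with limma-voom (1.62, adjusted p = 0.123) or with limma-trend on the deposited CPM (1.55 and 1.51, adjusted p = 0.0601 and 0.0553 with pseudocounts of 0.5 and 1). Ppargc1a (1.32), Per1 (0.58) and Nfil3 (0.58) also rose. The granin gene Scg2 fell from 584 ± 88.0 to 220 ± 78.2 CPM and the neurotrophin gene Bdnf from 63.6 ± 13.5 to 27.6 ± 12.8 CPM (SD, n = 5 each). Without ibudilast 3, ibudilast 5 and untreated 1, the genes Fos, Per1 and Nfil3 did not pass.

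**Figure D5:**
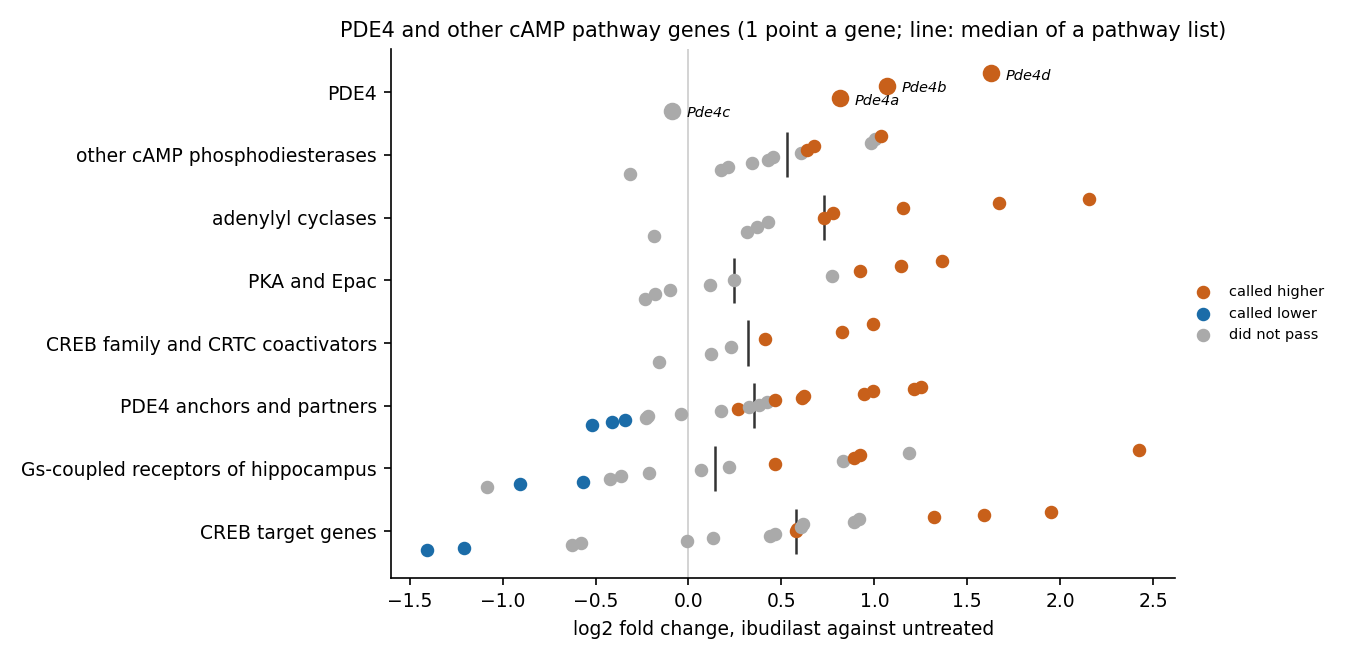
Log2 fold change, ibudilast against untreated (x axis), of each PDE4 gene and of each tested gene in 7 lists of cAMP pathway genes (y axis), coloured by the call at an adjusted p under 0.05, with a line at the median of each pathway list. Pde4d lies at 1.63, beyond all but 4 of the 85 other genes.

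The genes whose profiles were most like each member were found by the root mean square difference between log2 CPM profiles over the 10 libraries, each centred on its own mean, among 10212 genes that averaged 5 CPM or more. Nearest to Pde4d were Ankrd52 (0.15), Smcr8 (0.16) and Cds1 (0.17), which spanned 19.4, 11.2 and 60.6 kb. Among the genes nearest to Pde4b were Slc9a7 (0.11), which spanned 181 kb, and MGC114464 (0.12), which had no span. Nearest to Pde4a were Csnk1e (0.07), Cask (0.08) and Tcp11l1 (0.08), which spanned 23.6, 343.5 and 68.8 kb. No member was among the 3 genes nearest to another. Pde4b and Pde4a differed by 0.23, Pde4d and Pde4b by 0.34 and Pde4d and Pde4a by 0.48. The nearest genes were picked for the smallest differences, so a member outside them differs more by construction. Ranks among the 10212 genes place the members. Seen from Pde4d, Pde4b was at rank 124 and Pde4a at rank 417. Seen from Pde4b, Pde4a was at rank 118 and Pde4d at rank 659. Seen from Pde4a, Pde4b was at rank 381 and Pde4d at rank 3902. Nearest to the scarce Pde4c were Ptp4a3 (0.16), St3gal4 (0.16) and Spata6 (0.18), none of which passed the test. Likeness over these libraries includes the difference between the groups and says nothing of shared control.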

How the data were processed

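Left hippocampal RNA of 10 female rats was analysed, 5 per group, from strand-specific mRNA libraries per the labels' protocols. The authors deposited expected counts per gene. The submitters' processing notes list bcl2fastq 2.17, Bowtie2 2.1.0, RSEM 1.2.15, edgeR and build rn6. Neither the annotation nor strand use in counting is stated in the sources used here. A second deposited table, a signal in CPM after TMM scaling, also comes from the authors. Counts were rounded, filtered with filterByExpr (11682 genes left, all 4 members among them), scaled by TMM and compared by the quasi-likelihood test of edgeR 4.0.16 (R 4.3.3), with Benjamini-Hochberg adjusted p under 0.05 as the threshold; the code was tested on simulated data. CPM printed here were recomputed from the rounded counts and differed from the authors' table by at most 1.02% for PDE4 genes. Total counts ran from 6960066 to 8204390 in untreated and from 7553804 to 10121571 in ibudilast libraries. The SE of a log2 fold change is its size over the root of the F statistic. Groups came from the treatment labels.

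The members, lists, tests and alternatives were chosen with earlier results of these data known. Named genes were the 4 members, the 2 largest called changes per direction in each pathway list (mean of 1 CPM or more), 4 fixed genes (Pde4dip, Prkar1a, Creb1, Crem) and the 3 genes most like each member, of which 1 is not reported here. The other called list members were chosen for naming with their values in view. Other settings tried were scaling, filters, rounding, DESeq2 1.42.0, limma 3.58.1, a replicate block, the animal tag (a number in the sample titles), covariates, thinning, the span trend and libraries left out. Levels per transcript length were not computed.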

Additional observations from a re-analysis of the deposited data

Results flagged for a closer look

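Over 112 groups of 5 libraries (56 genes, 2 groups each), 5 had a library far from the other 4, where chance flags about 1 in 20 groups, and none of the 5 was in a PDE4 gene. In ibudilast 3 Akap12 stood at 277 CPM, where the rest of the group had 68.4 to 118 CPM. Mapk3 stood at 289 CPM in ibudilast 1 against 160 to 194 CPM, and Arrb2 at 76.6 CPM in the same library against 57.2 to 61.6 CPM. Adora2b was at 5.40 CPM in ibudilast 4 against 8.56 to 9.01 CPM. Crem was at 13.8 CPM in ibudilast 2 against 12.2 to 12.4 CPM.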

How the results depend on the processing

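Pde4a, Pde4b and Pde4d kept a positive log2 fold change under all 30 alternatives, over ranges of 0.46 to 1.02, 0.58 to 1.33 and 1.03 to 1.86. They lost their calls as follows. In the libraries with an animal tag (a number in the sample titles) above 200 alone (2 against 2) Pde4a was at 0.77 and Pde4b at 1.06. With the neocortical score Pde4a was at 0.46, and with the hippocampal score Pde4a, Pde4b and Pde4d were at 0.65, 0.75 and 1.65. In the libraries with a tag below 100 alone Pde4a, Pde4b and Pde4d were at 0.89, 1.12 and 1.82 and passed. Pde4c passed under none, between -0.51 and 0.14. The count of all genes called was 1997 with tags below 100, 540 with tags above 200, 2702 with the neocortical and 2 with the hippocampal score, and that of cAMP pathway genes, 38 of 85 with all libraries, was 20, 12, 23 and 0 (22 at an unadjusted p under 0.05 in edgeR; DESeq2 with all libraries called 40). Pde8b (-0.055) and Vipr1 (-0.28) changed sign with the neocortical score. The cause of these changes was not tested, and the fits within a tag range also had fewer libraries.

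The replicate numbers were not used as pairs in the main fit. Deviations of same-numbered libraries from their group means correlated between -0.127 and 0.023. Such correlations of expression cannot show whether the animals were matched. With the replicate block edgeR called 3535 genes and no PDE4 call changed (Pde4a 0.81, Pde4b 1.07, Pde4d 1.66). For the ratios between members the block leaves 32 arrangements of sign and a smallest p of 0.0625, so none could pass: the paired shifts were 0.86, 0.59, 1.78, 1.19 and 0.93 with adjusted p = 0.075 each. The Pde4d to Pde4a shift was 0.71 without ibudilast 3, ibudilast 5 and untreated 1 together and 0.44 with the span trend removed, and did not pass in either. The Pde4b to Pde4a shift ranged from 0.17 to 0.33 with 1 library left out and passed only without ibudilast 1. Without ibudilast 1 as well, an alternative chosen after seeing the data, 2 libraries against 4 allow no p below 0.0667. The shifts of Pde4d against Pde4a, Pde4b and Pde4c were then 0.70, 0.37 and 1.64 and those of Pde4b and Pde4a against Pde4c 1.27 and 0.93 (adjusted p = 0.133 each). Pde4c had 12 to 25 counts per library and a standard error of 0.25, against 0.22 for Pde4d.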
